A study of Bos taurus with 8 samples.

Results

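The enzymes that write and remove DNA methylation were followed through 8 cattle trophectoderm outgrowths: the DNA methyltransferases DNMT1, DNMT3A and DNMT3B and the TET dioxygenases TET1, TET2 and TET3. They were chosen by gene symbol, and all 6 symbols had a row among the 14970 genes of the deposited table. An outgrowth is a culture spread from the outer layer of the blastocyst, the trophectoderm, which later forms the embryo's part of the placenta. Each outgrowth came from 1 embryo produced in vitro that had hatched from its zona pellucida and was set on collagen IV on day 10, in a medium that the labels call trophectoderm growth media. Outgrowths were collected on day 35 (n = 4) or day 41 (n = 4), so the comparison asks what differs between cultures that are 6 days apart in age. No other treatment separates the days, and the labels give neither the breed nor the parents of the embryos. No uncultured trophectoderm was among the libraries, so the levels describe cells after long culture. In the sample titles the outgrowth number 1 occurs on both days, and no other number does. The column names of the table give the day and not the outgrowth. The libraries are therefore called A to D for day 35 and E to H for day 41.

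DNA methylation in mammals is a methyl group on cytosine, mostly where a guanine follows. DNMT1 copies the pattern onto the new strand after replication, with UHRF1 leading it to sites methylated on the old strand alone, while DNMT3A and DNMT3B add methyl groups to sites that had none. TET enzymes oxidise the methyl group, and the oxidised base is then diluted by replication or cut out by the glycosylase TDG and replaced. In the mouse, the lineages outside the embryo proper, the trophoblast among them, carry less DNA methylation than the embryo.

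DNMT1 and DNMT3B were the most abundant of the 6 transcripts, and DNMT3A and the 3 TET transcripts ran several-fold below them in the mean. None of the 6 passed the test between day 35 and day 41. The values of the days overlapped for every one of them. The largest contrast among the libraries was not between the days: library A of day 35 had the lowest value of all 8 libraries for each of the 6 genes, and library G of day 41 was the next lowest for DNMT3B, TET1, TET2 and TET3. Levels are given as RPKM, which divides the reads of a gene by its exon length and by the library's scaled size, so that genes of different length can be compared.

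The libraries held 106402848 to 158034430 reads in genes, and the values of the 6 genes rested on 245 reads (TET1 in library A) to 8257 reads (DNMT1 in library H). Library A stood apart from the rest over the whole table, with a mean correlation of 0.954 to the other libraries, where the others had 0.966 to 0.976. Results that rest on library A are therefore given with and without it. The trophoblast markers had values in every library. Their summed level was 10824 to 14294 RPKM in the day 35 libraries and 10761 to 12685 RPKM in those of day 41. Most of this sum was SSLP1, at 6655 to 9930 RPKM across libraries, while CDX2 was at 4.47 to 10.3 RPKM. TEAD4 was at 27.9 RPKM in library A and 11.8 to 14.5 RPKM in the others. Of the 10 trophoblast markers 8 had a lower mean on day 41 (median difference -0.24, and -0.19 without library A). None was called by limma-trend, 2 had an unadjusted limma p under 0.05 and 2 were called lower with array weights. Among all 12582 tested genes 5961 were lower, 11.7% had such an unadjusted p and 8.3% were called with array weights, in either direction. The mesoderm and stroma markers summed to 17.2 to 234 RPKM in day 35 outgrowths and 3.27 to 33.1 RPKM in day 41 outgrowths, and the hypoblast markers to 21.2 to 352 and 12.9 to 86.5 RPKM, with library B the highest for both lists. In library A these sums were 29.4 and 21.2 RPKM. By the authors' deposited table the stroma marker ACTA2 was lower on day 41 (the authors' log2 fold change -2.53, FDR 0.000987) and the immune cell marker CD14 higher (0.61, FDR 0.0399), and limma-trend called neither (adjusted p = 0.242 and 0.179). CD14 was called by limma-voom with quality weights (adjusted p = 0.0469) and by limma-trend with array weights (0.0395), and ACTA2 by neither (0.102 and 0.0718). Those fits called 5.18% and 8.3% of all tested genes. Of the immune cell markers CD68, CD14 and CSF1R summed to 9.79 to 16.8 RPKM, and PTPRC, CD3E and CD79A were not analysed here. The cumulus and granulosa markers summed to at most 4.88 RPKM. The part of these other cell types in the results was not tested. In bulk RNA, fewer cells of a type and less RNA per cell cannot be told apart.

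DNMT1, the maintenance methyltransferase, lies on chromosome 7 of ARS-UCD1.2, bases 14686995 to 14730720 on the minus strand (ENSBTAG00000002736, 5500 bases of exon). On day 35 it was at 5.86, 9.75, 9.83 and 10.3 RPKM in libraries A to D. On day 41 it was at 9.72, 9.05, 10.1 and 9.46 RPKM in libraries E to H. Library A was far below, and the other 7 lay within a 1.14-fold range, the narrowest of the 6 genes. Day 35 averaged 8.93 ± 2.07 RPKM and day 41 averaged 9.58 ± 0.445 RPKM (SD, n = 4 each). The difference, day 41 minus day 35, was 0.12 on the log2(RPKM + 1) scale (SE 0.16, 95% interval -0.25 to 0.49, limma adjusted p = 0.825). Without library A it was -0.051.

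DNMT3A, a de novo methyltransferase, lies on chromosome 11, bases 73971560 to 74074893 on the plus strand (ENSBTAG00000021143, 10877 bases of exon). In libraries A to D it measured 1.18, 2.10, 2.30 and 2.61 RPKM. In libraries E to H it measured 2.08, 2.70, 2.90 and 3.27 RPKM. Library H was highest and library A lowest, and libraries B, C and D of day 35 all lay above library E, the lowest of day 41. The means were 2.05 ± 0.615 and 2.74 ± 0.497 RPKM (SD, n = 4 each). The difference of 0.31 (SE 0.18, 95% interval -0.09 to 0.71, limma adjusted p = 0.537) was the largest of the 6 in size on this scale over all 8 libraries, and missed the threshold. Its rank was not stable. Without library A it was 0.16, and the TET1 difference of -0.43 was larger in size. The TET3 difference was larger at a pseudocount of 0.1 (0.45 against 0.44) and with limma-voom (0.48 against 0.46). The DNMT3A difference was the only one of the 6 with 1 direction in all 18 alternative settings.

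DNMT3B, the other de novo methyltransferase, lies on chromosome 13, bases 62142537 to 62176363 on the plus strand (ENSBTAG00000003901, 3774 bases of exon). Day 35 gave 3.73, 8.72, 9.86 and 9.40 RPKM. Day 41 gave 9.51, 11.5, 4.76 and 10.6 RPKM. Each day thus had 1 low library, A on day 35 and G on day 41, and the other 6 outgrowths lay between 8.72 and 11.5 RPKM. The means were 7.93 ± 2.84 and 9.09 ± 2.99 RPKM (SD, n = 4 each), with a difference of 0.19 (SE 0.33, 95% interval -0.55 to 0.93, limma adjusted p = 0.866). The difference was -0.092 without library A.

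TET1 lies on chromosome 28, bases 24918286 to 25035716 on the plus strand (ENSBTAG00000037756, 6414 bases of exon). In mouse it is the main TET enzyme of embryonic stem cells. Libraries A to D held 0.327, 1.32, 2.61 and 2.39 RPKM, and libraries E to H held 1.30, 1.64, 0.454 and 2.01 RPKM. TET1 had the widest range of the 6, 7.97-fold over the 8 libraries and 5.75-fold without library A, and libraries A and G were the only ones under 1 RPKM. The means were 1.66 ± 1.05 and 1.35 ± 0.665 RPKM (SD, n = 4 each). The difference was -0.13 (SE 0.34, 95% interval -0.91 to 0.66, limma adjusted p = 0.920), and -0.43 without library A.

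TET2, which lacks the CXXC DNA-binding domain that TET1 carries, lies on chromosome 6, bases 19898416 to 19995309 on the minus strand (ENSBTAG00000017682, 7056 bases of exon). Its values in libraries A to D were 0.867, 1.94, 2.37 and 2.96 RPKM, and those in libraries E to H were 2.02, 2.10, 1.82 and 2.49 RPKM. The day 41 libraries fell inside the range of day 35. The means were 2.03 ± 0.882 and 2.11 ± 0.282 RPKM (SD, n = 4 each), with a difference of 0.08 (SE 0.22, 95% interval -0.41 to 0.58, limma adjusted p = 0.916). Without library A it was -0.13.

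TET3, the TET enzyme of the mammalian oocyte and zygote, lies on chromosome 11, bases 10561669 to 10666478 on the minus strand (ENSBTAG00000022381, 6558 bases of exon). The day 35 libraries A to D read 0.426, 1.89, 2.62 and 2.64 RPKM and the day 41 libraries E to H read 2.24, 3.15, 1.73 and 1.86 RPKM. Library F was highest, and outside library A its values stayed within a 1.82-fold range. The means were 1.89 ± 1.04 and 2.25 ± 0.643 RPKM (SD, n = 4 each). The difference was 0.24 (SE 0.30, 95% interval -0.44 to 0.92, limma adjusted p = 0.808), and -0.071 without library A.

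**Figure D1:**
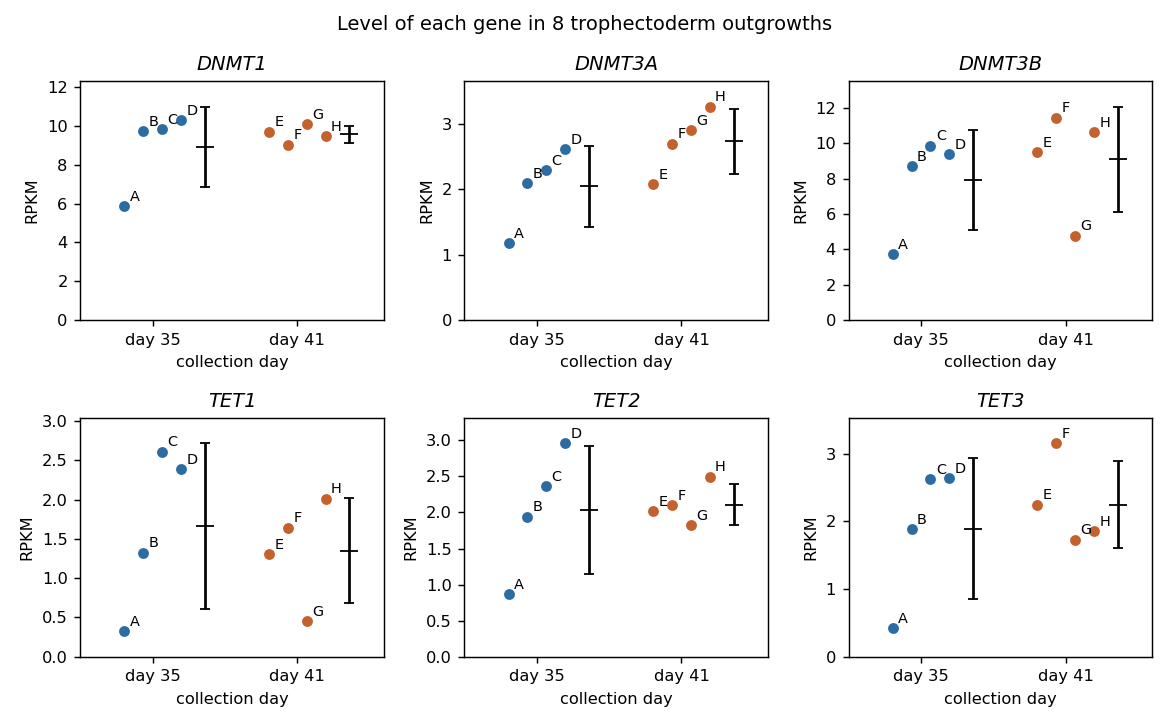
Level of each of the 6 genes in RPKM (y axis, from 0) in the 4 outgrowths of day 35 and the 4 of day 41; each lettered point is 1 library, and the bar and whisker are the mean and SD of the day. Library A is the lowest point in all 6 panels, and library G lies with it for DNMT3B (4.76 RPKM) and TET1 (0.454 RPKM).

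Of the 12582 genes tested between the days, limma-trend called 6, or 0.0477%, and none of these was a methyltransferase or TET gene. At an unadjusted p under 0.05 the share was 11.7% of genes and again none of the 6. With library A given less weight, 5.18% of genes were called by limma-voom with quality weights and 8.3% by limma-trend with array weights, and none of the 6 was among them. The lowest adjusted p that any of the 6 reached in any of the 18 alternative settings was 0.271. By the test in the authors' deposited table, an FDR under 0.05 was reached by 1.76% of genes, and the authors' FDR for the 6 genes ran from 0.686 for DNMT3A to 0.999 for TET2. The days did not overlap for 8.2% of tested genes and for 0 of the 6. The missed threshold does not show equal levels: the interval of the difference was narrowest for DNMT1, from -0.25 to 0.49, and ran up to 0.93 for DNMT3B and down to -0.91 for TET1.

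**Figure D2:**
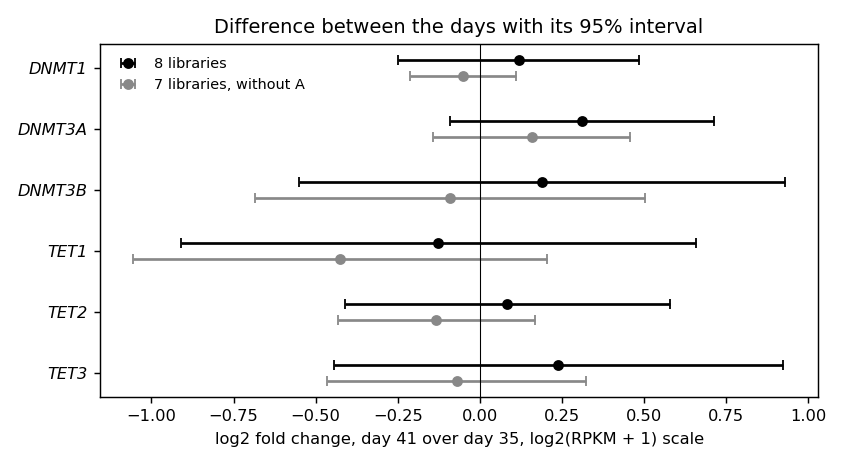
Difference of day 41 minus day 35 on the log2(RPKM + 1) scale for the 6 genes, with its 95% interval (bar), over all 8 libraries in black and without library A in grey. All intervals over 8 libraries cross 0, and without library A the differences of DNMT1, DNMT3B, TET2 and TET3 lie below 0 (-0.051, -0.092, -0.13 and -0.071), with intervals that also cross 0.

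The order of the levels set DNMT1 and DNMT3B above the other 4. Over the 8 libraries the mean level was 9.26 RPKM for DNMT1, 8.51 RPKM for DNMT3B, 2.39 RPKM for DNMT3A, 2.07 RPKM for TET2, 2.07 RPKM for TET3 and 1.51 RPKM for TET1. DNMT3B exceeded DNMT3A in 8 of 8 libraries, by 1.44 on the log2(RPKM + 1) scale. The exact sign-flip p was 0.0078, the smallest that 8 libraries allow (adjusted p = 0.0391 over 5 neighbouring pairs, two-sided). The 5 pairs were taken from the order of the mean levels in these same libraries, a choice that the p-values do not take into account. The size of this gap depends on the annotated exon lengths, 10877 bases for DNMT3A and 3774 for DNMT3B, which the sign-flip does not test. In reads DNMT3B was higher in every library but G, where it had 2163 and DNMT3A 3800. DNMT1 and DNMT3B did not differ beyond their spread: DNMT1 was higher in 5 of 8 libraries, by 0.16 in the mean (adjusted exact p = 0.430). Nor did DNMT3A and TET2, at 0.15 apart (adjusted exact p = 0.143), or TET2 and TET3, at 0.03 apart (adjusted exact p = 0.766). TET3 lay above TET1 in 7 of 8 libraries, by 0.31, and missed the threshold after adjustment (adjusted exact p = 0.0586). Among the tested genes, DNMT1 and DNMT3B stood near the middle by mean level, at percentiles 47.6 and 45.3, while DNMT3A, TET2, TET3 and TET1 stood at 18.5, 16.4, 16.4 and 11.8.

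The proportions of the transcripts differed between outgrowths, as their levels did. The 3 DNMT transcripts summed to 10.8 RPKM in library A and to 17.8 to 23.3 RPKM in the other 7. The TET transcripts summed to 1.62 RPKM in library A and to 4.00 to 7.99 RPKM in the others. The DNMT sum was therefore 6.65 times the TET sum in library A and 2.79 to 4.44 times in the others, with day means of 4.08 ± 1.79 and 3.83 ± 0.452 (SD, n = 4 each). Library G differed from the rest in composition: DNMT3B was 1.64 times DNMT3A there and 3.16 to 4.57 times in the other 7 libraries. In the same library TET1 made up 11.3% of the TET sum, against 20.2% to 34.3% elsewhere. DNMT1, in contrast, was at 10.1 RPKM in library G, the second highest of the 8. These ratios were computed after the values by library had been seen and carry no test.

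Library A was the lowest of the 8 for 6 of 6 genes, while it was the lowest for 29.2% of all tested genes. Its level relative to the median of the other 7 was 0.601 for DNMT1, 0.452 for DNMT3A and 0.392 for DNMT3B. It was 0.413 for TET2, 0.200 for TET1 and 0.190 for TET3. On the log2(RPKM + 1) scale the median of these differences was -0.86, where the median over all tested genes was 0.01, a value that the scaling of the libraries holds near 0. Library A had 130189352 reads, inside the range of the others, and its scale factor behind the RPKM was 0.897, the lowest of the 8. The part of these properties of the library in the low values was not tested. By SD over the 8 libraries, TET1 and DNMT3B ranked at percentiles 92.3 and 91.5 among tested genes, TET3 at 89.8, TET2 at 74.9, DNMT3A at 70.5 and DNMT1 at 55.1.

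**Figure D3:**
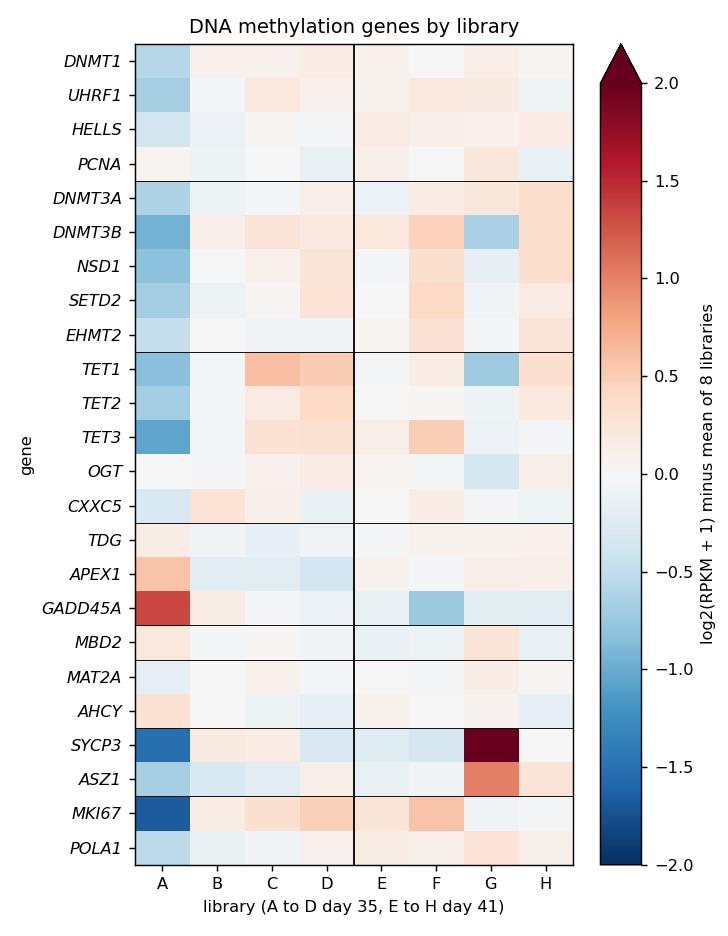
Difference of each gene from its mean over the 8 libraries on the log2(RPKM + 1) scale (colour), for the 6 genes and the named partner genes (rows) in libraries A to H (columns). The column of library A is low for all 6 genes and high for APEX1 and GADD45A, and library G is low for DNMT3B and TET1.

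Whether the 6 genes varied together between outgrowths was asked over 22 relations, of which 15 were pairs among the 6. By Pearson correlation of log2(RPKM + 1) over the 8 libraries, 5 pairs passed an exact permutation test after adjustment over all 22. TET1 and TET2 had r = 0.863 and Spearman rho = 0.905 (adjusted exact p = 0.0115 for r and 0.10 for rho). DNMT3B and TET3 had r = 0.853 and rho = 0.690 (adjusted exact p = 0.0306 and 0.261). DNMT3B and TET1 had r = 0.893 and rho = 0.667 (adjusted exact p = 0.0497 and 0.261). The pairs of DNMT3B with TET2 (r = 0.812, rho = 0.690) and of TET1 with TET3 (r = 0.769, rho = 0.690) each had an adjusted exact p of 0.0497 for r and 0.261 for rho. Without the 2 libraries farthest from the median on the x axis, A and G for these 5 pairs, none of the 22 relations passed. The relations of DNMT3B rest on those libraries: without them r was 0.183 with TET1, 0.062 with TET2 and 0.508 with TET3, and that of TET1 with TET3 was 0.322. For TET1 with TET2, r was 0.817 over the remaining 6 libraries (unadjusted exact p = 0.0569, adjusted 0.905). The call was thus lost while the coefficient stayed near its value over 8 libraries. Without library G alone, library A still included, r was 0.954 for this pair (adjusted exact p = 0.0805). In that setting r was also high for DNMT3B with TET3 (0.944), with TET2 (0.883) and with TET1 (0.852), and for TET1 with TET3 (0.855). None of these passed. Without library A alone, again none of the 22 passed, with r at 0.814 for both DNMT3B with TET1 and TET1 with TET2, and at 0.494 for DNMT3B with TET2, 0.624 for DNMT3B with TET3 and 0.579 for TET1 with TET3. Within-day relations over 4 libraries were too few to test; with each day's mean removed, 14 of the 22 passed, library A still included, and permuting such values is approximate.

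DNMT1 is made mostly in cells that replicate their DNA, and its level was therefore set beside a list of 18 S phase and proliferation genes. The mean log2(RPKM + 1) of that list was 4.10 in library A and 4.53 to 4.81 in the other 7. Of its genes 15 of 18 were lowest in library A, where 29.2% of all tested genes were. Among the 15 was MKI67, a marker of cycling cells, at 6.77 RPKM against 22.4 to 35.6 RPKM in the others. Between the days 12 of the 18 had a higher and 6 a lower mean (median difference 0.11, and -0.06 without library A). Over all 12582 tested genes 6621 were higher and 5961 lower. None passed limma-trend, limma-voom or the authors' test. An unadjusted limma p under 0.05 was reached by 1, the polymerase subunit gene POLA1, and by 11.7% of all tested genes. The correlation of DNMT1 with this score was r = 0.949 and rho = 0.810 and missed the threshold (adjusted exact p = 0.0650 and 0.240), and r was 0.474 without library A. TET3 followed with r = 0.900 (adjusted exact p = 0.0707), and 0.387 without library A. With UHRF1, its recruiting partner, DNMT1 had r = 0.904 (adjusted exact p = 0.117) over 8 libraries and 0.013 without library A. The ratio of UHRF1 to DNMT1 kept within 1.45 to 1.90 in every library.

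**Figure D4:**
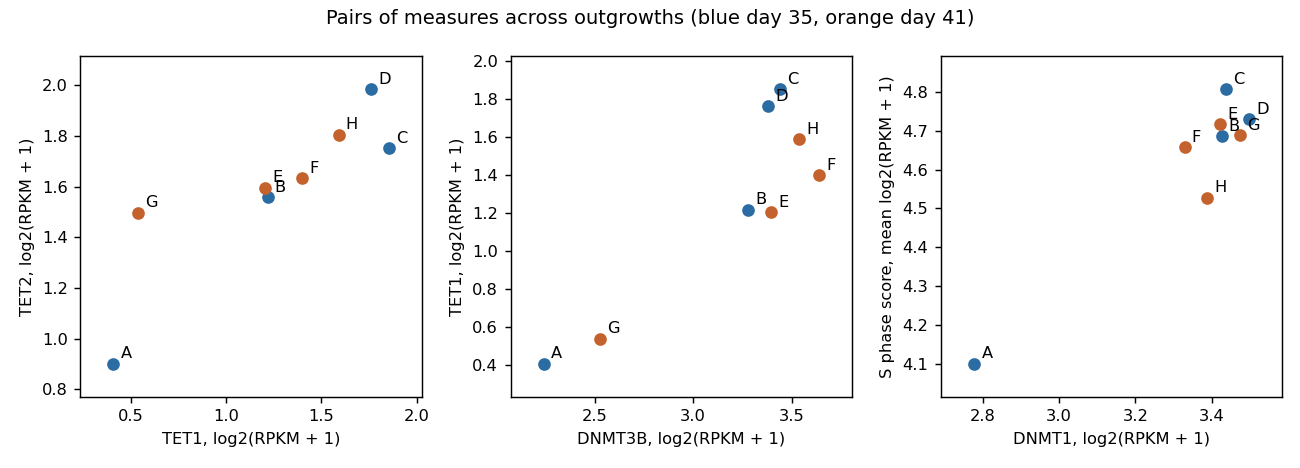
Levels on the log2(RPKM + 1) scale in the 8 libraries (lettered points, coloured by day) for TET1 with TET2, DNMT3B with TET1 and DNMT1 with the S phase score. Library A sits at the low end of every panel, and library G lies beside it on the DNMT3B and TET1 axes. Without A and G the r of TET1 with TET2 is 0.817 and that of DNMT3B with TET1 is 0.183.

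For each of the 6 genes those of the 3 tested genes with the highest r over the 8 libraries that are reported here are named; chosen for likeness, they carry no test. For DNMT1 these were WDR37 (r = 0.988) and PFAS (0.988), an enzyme of purine synthesis, and their r without library A was 0.759 and 0.732. DNMT3A was closest to SLC30A9 (0.970), ARHGAP42 (0.954) and COBLL1 (0.952). For DNMT3B they were NIPAL3 (0.992), FLNC (0.983) and MTMR10 (0.976), all of them at 0.946 or more without library A. FLNC, filamin C, a protein that crosslinks actin, was at 10.5 and 11.1 RPKM in libraries A and G and at 27.4 to 39.9 RPKM in the other 6, the same split as DNMT3B. TET1 was closest to LNPEP (0.984), IDS (0.973), a lysosomal sulfatase, and INPP4A (0.967). TET2 lay with ZKSCAN1 (0.996), ROCK1 (0.995), a kinase that acts on the actin skeleton, and NIPBL (0.994), the loader of cohesin. TET3 lay with FBRSL1 (0.995), ASAP2 (0.993) and HIC2 (0.992). The coefficients of the TET2 and TET3 neighbours stayed at 0.973 or more without library A.

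The partners of DNMT1 at the replication fork had values in all 8 libraries. Of 9 maintenance genes 7 had a higher mean value on day 41 and 2 a lower one, where 6621 of all 12582 tested genes were higher. Their median difference was 0.19 (0.10 without library A), where the median over all tested genes was 0.01. None passed limma-trend, limma-voom or the authors' test after adjustment. An unadjusted limma p under 0.05 was reached by 1, the remodelling enzyme HELLS, and by 11.7% of all tested genes. For HELLS the means of day 35 and day 41 were 8.44 ± 1.14 and 10.2 ± 0.322 RPKM (SD, n = 4 each; difference 0.26, limma adjusted p = 0.403). In the same order UHRF1 was at 14.01 ± 3.56 and 15.7 ± 1.57 RPKM (adjusted p = 0.734), and 8.91 RPKM in library A. PCNA, the sliding clamp that also holds DNMT1, was at 54.9 ± 3.64 and 59.0 ± 6.47 RPKM (adjusted p = 0.745), and library A at 58.8 RPKM was not low. Library A held the lowest value for 5 of the 9 genes, and for 29.2% of all tested genes.

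Among 16 genes that guide de novo methylation or mark the chromatin it reads, 14 had a higher mean on day 41 and 2 a lower one. Their median difference was 0.16, and 0.06 without library A. Over all 12582 tested genes 6621 were higher and 5961 lower. None passed limma-trend, limma-voom or the authors' test. An unadjusted limma p under 0.05 was reached by 2, and by 11.7% of all tested genes. HDAC2, a histone deacetylase, was at 21.8 ± 1.29 and 27.0 ± 0.918 RPKM (difference 0.30, adjusted p = 0.229). It was called higher on day 41 in both fits that weight the libraries. Of all tested genes those fits called 5.18% with quality weights and 8.3% with array weights. MORC2, a chromatin-compacting ATPase, was at 31.3 ± 1.38 and 35.8 ± 1.53 RPKM (adjusted p = 0.382). NSD1 and SETD2, the histone methyltransferases whose marks are bound by the PWWP domains of DNMT3A and DNMT3B, were at 11.6 ± 3.57 and 13.6 ± 2.50 RPKM and at 11.2 ± 3.17 and 13.2 ± 2.08 RPKM, with adjusted p of 0.732 and 0.681. Both were lowest in library A, at 6.49 and 7.07 RPKM, as were 11 of the 16 and 29.2% of all tested genes. DNMT3L was not analysed here.

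The TET partners and enzymes of cofactor supply numbered 10 tested. Of these 9 had a higher and 1 a lower mean on day 41 (median 0.06, and 0.00 without library A), where 6621 of all 12582 tested genes were higher. IDH1, which makes the oxoglutarate that TET enzymes consume, had day means of 62.1 ± 11.9 and 86.5 ± 14.3 RPKM (difference 0.48, adjusted p = 0.312). It alone of the 10 had an unadjusted limma p under 0.05, where 11.7% of all tested genes did. None of the 10 was called by limma-trend, limma-voom or the authors' test. OGT, the sugar transferase bound by TET2 and TET3, was at 14.2 ± 0.972 and 13.2 ± 1.89 RPKM (adjusted p = 0.762). CXXC5 was at 38.1 ± 6.96 and 38.6 ± 2.79 RPKM (adjusted p = 0.948). Library A held the lowest value for 8 of the 10, and for 29.2% of all tested genes. CXXC4 and DPPA3 were not analysed here.

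The list for base excision of oxidised or deaminated bases, with the GADD45 genes beside the repair enzymes, held 13 genes. Of these, 6 had their highest value of the 8 libraries in library A and 4 their lowest. Library A was the highest for 31.2% and the lowest for 29.2% of all tested genes. The count of lowest values is thus near the share of genes at large, and the count of highest values lies above it, which was not tested. SMUG1 was among the 4 lowest there, at 10.7 RPKM against 10.8 to 13.4 RPKM in the other 7. APEX1, GADD45A and TDG were among the 6 highest. APEX1, the endonuclease that cuts the strand at the emptied site, was at 147 RPKM in library A and 75.5 to 108 RPKM in the other 7. GADD45A, a stress-response gene linked to demethylation, was at 99.98 RPKM in library A and 23.0 to 43.4 RPKM in the others. TDG, the glycosylase for oxidised cytosine, was highest in library A as well, at 25.3 against 20.2 to 24.4 RPKM. Between the days 7 of the 13 had a higher and 6 a lower mean, with a median of 0.01, and none had an unadjusted limma p under 0.05; GADD45A, with 54.4 ± 30.6 and 31.2 ± 5.53 RPKM, came closest (difference -0.67, adjusted p = 0.449).

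Readers of methylated DNA and their relatives in the MBD family numbered 9. Of these 7 had a higher and 2 a lower mean on day 41 (median 0.07, and 0.05 without library A). Among all 12582 tested genes 6621 were higher and 5961 lower. None passed limma-trend, limma-voom or the authors' test. An unadjusted limma p under 0.05 was reached by 3 zinc-finger readers, and by 11.7% of all tested genes. ZBTB33 had day means of 6.06 ± 0.657 and 8.01 ± 0.569 RPKM (difference 0.35, adjusted p = 0.252). It was called higher in both fits that weight the libraries, which called 5.18% (voom quality weights) and 8.3% (array weights) of all tested genes. ZBTB4 was at 10.5 ± 1.37 and 13.9 ± 1.41 RPKM (adjusted p = 0.286), and ZBTB38 at 3.39 ± 0.597 and 4.36 ± 0.440 RPKM (adjusted p = 0.427). MBD2 and MBD3, alternative subunits of the NuRD complex, were at 42.3 ± 3.74 and 40.6 ± 5.97 RPKM and at 42.2 ± 2.60 and 39.6 ± 3.29 RPKM, with adjusted p of 0.872 and 0.735.

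The genes of methyl donor synthesis showed no common direction, with 4 higher and 5 lower means on day 41 among 9 tested (median -0.02, and -0.10 without library A). None passed limma-trend, limma-voom or the authors' test. At an unadjusted limma p under 0.05 there was 1 in each direction, where the share over all tested genes was 11.7%. AHCY, which clears the inhibitor left by every methyl transfer, was at 142 ± 22.1 and 140 ± 11.4 RPKM (adjusted p = 0.975). MAT2A, which makes S-adenosylmethionine, was at 58.4 ± 4.48 and 60.7 ± 3.57 RPKM (adjusted p = 0.852). The AHCY relatives AHCYL1 and AHCYL2 differed in sign, at 28.0 ± 2.25 and 35.7 ± 3.19 RPKM (adjusted p = 0.248) and at 6.83 ± 1.59 and 4.85 ± 0.839 RPKM (adjusted p = 0.417).

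**Figure D5:**
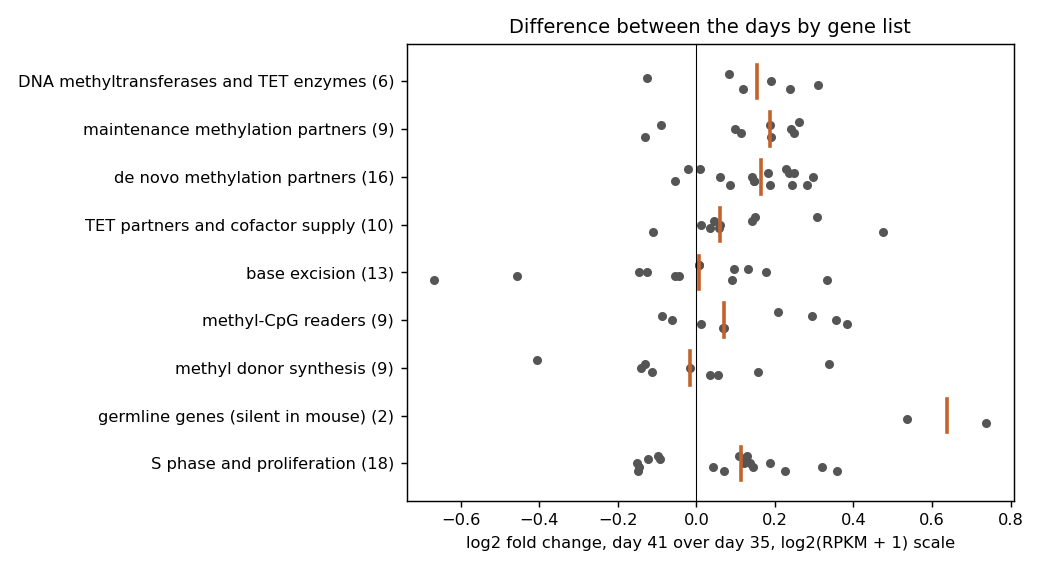
Difference of day 41 minus day 35 on the log2(RPKM + 1) scale for every tested gene (points) of the 6 enzymes and of each pathway list, with the list's median as a line. The medians of the lists of 9 or more genes lie between -0.02 and 0.19, against 0.01 for all tested genes, and no point was called by limma-trend.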

How the data were processed

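Per the labels' protocols, cells were taken up in Trizol and Illumina libraries were made from total RNA. ARS-UCD1.2, HISAT2, FastQC, edgeR and featureCounts are named in the submitters' processing notes; versions and strand setting are not given in the sources used here. The authors deposited 1 table of RPKM per library, with exon lengths and coordinates, and with their own comparison of the days: log2 fold changes, a test score (the likelihood ratio), p-values and FDR. RPKM times exon length gave whole reads within 0.01 for 100% of values; recovered reads served as depth and in the voom alternatives only. No gene of the table overlaps an exon of the 6 genes.

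The days were compared with limma 3.58.1 (R 4.3.3), limma-trend on log2(RPKM + 1) without covariate, over the 12582 genes at 0.5 RPKM or more in at least 4 libraries, two-sided, with Benjamini-Hochberg adjustment at 0.05 over all of them. Fold changes on this scale understate those of low genes. The scripts were tested on simulated data. P-values measure the spread between outgrowths, whose parents are not stated. Columns name the day only, so no library was tied to a numbered outgrowth. The sample titles number the outgrowths, and number 1 is the only one found on both days. Whether both samples came from the same outgrowth cannot be told from the titles, and the fits treated all libraries as separate. Members and lists were chosen with earlier results of these data known. Genes named from each list are 18 preset partners, where analysed, and the 3 with the smallest unadjusted p, and for each enzyme the 3 nearest genes by r; some genes that the rule names are not reported here, though list counts include them. Alternatives changed scaling, filter, pseudocount, model, weights and libraries.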

Additional observations from a re-analysis of the deposited data

Results flagged for a closer look

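In each day's 4 values of 58 named genes, a sample was flagged where its gap to the nearest other exceeded Dixon's 95% critical share of the group's range. There were 15 flags in 116 groups. Chance flags about 1 in 20 groups where genes are chosen without regard to their values, and flags of correlated genes are not independent. Part of the 58 genes were named from these same values, for a small p between the days or for likeness to an enzyme gene. PFAS, NIPAL3, MTMR10 and ARHGAP42 are such likenesses. The count of flags can therefore not be set against that rate. Of the 12 groups of the methyltransferase and TET genes, 1 was flagged: DNMT1 in library A, at 5.86 RPKM where B, C and D held 9.75 to 10.3 RPKM. Library A carried 6 flags in all. It was low for EHMT2 (15.2 RPKM), PFAS (3.20 RPKM) and NIPAL3 (6.30 RPKM), and high for APEX1 (147 RPKM) and GADD45A (99.98 RPKM). Library G was flagged high for SYCP3 (32.7 RPKM against 5.35 to 6.97 RPKM) and MBD2 (49.5 RPKM), and low for MTMR10 (11.6 RPKM). Library F was high for KDM2B (5.67 RPKM) and MBD3 (44.6 RPKM) and low for GADD45A (23.0 RPKM). Library H was high for ARHGAP42 (8.62 RPKM) and low for SMUG1 (10.8 RPKM). Library E was high for IDH1 (108 RPKM).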

How the results depend on the processing

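No methyltransferase or TET gene was called in any of 18 alternatives. The difference between the days turned sign for DNMT1, TET2 and TET3 with voom quality weights (-0.022, -0.10 and -0.031) and with array weights (-0.017, -0.087 and -0.038), which give library A the least weight. Leaving out 1 library at a time, it ranged from -0.051 to 0.19 for DNMT1, 0.16 to 0.40 for DNMT3A, -0.092 to 0.44 for DNMT3B, -0.43 to 0.088 for TET1, -0.13 to 0.23 for TET2 and -0.071 to 0.38 for TET3. Genes called over the whole table numbered 6; they were 10 with upper-quartile scaling, 3 without the filter, 3 at a pseudocount of 0.1, 2 with voom, 652 with quality weights, 1044 with array weights and 0 to 43 with 1 library left out. The 0 came without B, C, D, E or F, where 1040, 1125, 1705, 1051 and 1150 genes had an unadjusted limma p under 0.05. The neighbouring pairs of levels that passed numbered 1, and 0 to 2 with 1 library left out, where 7 libraries allow no p small enough for a lone pair; DNMT3B minus DNMT3A stayed between 1.40 and 1.57, and TET2 minus TET3 ranged from -0.021 to 0.10. The relations that passed numbered 5, then 14 after centring by day, 0 without the 2 farthest libraries and 0 to 9 with 1 left out. The cause was not tested. The columns carry no outgrowth number, and only number 1 appears in the sample titles of both days, so no paired analysis was made.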

Other observations

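Genes of the germline that DNA methylation keeps silent in mouse were looked up as a readout apart from the enzymes' own levels. Of 15 listed, 5 had a row and 2 reached the filter. SYCP3, a protein of the meiotic chromosome axis, read 1.82, 8.10, 7.92 and 5.51 RPKM in libraries A to D, and 5.77, 5.35, 32.7 and 6.97 RPKM in libraries E to H. ASZ1, of the germline small RNA pathway, read 0.0633, 0.362, 0.459 and 0.827 RPKM in the former and 0.528, 0.621, 2.41 and 1.03 RPKM in the latter. Both were highest in library G, where DNMT3B was at 4.76 RPKM, and both were lowest in library A, where DNMT3B was at 3.73 RPKM. The other 3 did not share this: TDRD1 was lowest in library G (0.158 RPKM), TDRD9 highest in library A (0.160 RPKM) and PIWIL2 highest in library F (0.514 RPKM), all below the filter. Neither SYCP3 nor ASZ1 passed the test between the days (limma adjusted p = 0.670 for SYCP3 and 0.487 for ASZ1). DNA methylation itself was not measured.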
